A study of Mus musculus with 9 samples.

Results

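The genes described are those of the fibrillar and type VI collagens in neonatal rat ventricular cardiomyocytes (NRVMs) that overexpress Nrf1 or Nrf2, found by their symbols in the deposited expression tables. Of 10 symbols named by the rule, 8 had values, *Col1a1*, *Col1a2*, *Col3a1*, *Col5a1*, *Col5a2*, *Col5a3*, *Col11a1* and *Col6a2*, and all 8 passed the filter on low reads that left 11639 of 15066 genes for testing. *Col6a1* and *Col6a3*, which encode the partner chains of *Col6a2*, were not analysed here. The NRVMs came from Sprague Dawley rats 1 or 2 days old and were kept in culture for 48 h before infection with adenoviruses at an MOI of 50. The groups were Adeno-LacZ, whose virus carries a bacterial enzyme and served as the control, Adeno-Nrf1 and Adeno-Nrf2, and each group had 3 libraries, collected 48 h after infection. According to the methods of the study, the viruses carried mouse Nrf1 or Nrf2 coding sequence behind a CMV promoter, which is not specific to cardiomyocytes, together with a red fluorescent protein. The sample records name mouse as the organism, but the cells were from rats and the reads were aligned to the rat genome. Nothing in the labels says whether the 3 libraries of a group came from separate cell isolations, so the p-values measure the spread between these libraries, which may be technical.

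Fibrillar collagens are the rope-like proteins that give connective tissue its tensile strength. In the heart, type I collagen forms most of the fibrils, type III is woven into them, and the minor types V and XI sit within fibrils, where they help to start assembly and limit the fibril diameter. Type VI collagen forms beaded microfilaments around cells, and each molecule combines chains from different genes. Cardiac fibroblasts are the main source of these transcripts, and NRVM cultures hold some fibroblasts beside the cardiomyocytes. Nrf1 and Nrf2 are related transcription factors that bind antioxidant response elements, Nrf1 being known for the control of proteasome genes and Nrf2 for that of detoxification genes.

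The deposited tables give group means only. Each mean was found to be a sum of whole reads from 3 libraries, each weighted by what 1 read of that library adds, and because each group stands in 2 tables with other weights the reads of every library could be solved for. Exactly 1 set of whole numbers met both tables for 99.9% of the genes listed in both for LacZ, 99.9% for Nrf1 and 99.98% for Nrf2, including all 8 collagen genes. Libraries are numbered here within their group from the deepest to the shallowest, which is not the numbering of the sample names. They held between 7840301 and 11787494 reads in listed genes, and values below are these reads divided by size factors (normalized reads). *Nfe2l2*, which encodes Nrf2, had between 3400 and 3494 normalized reads in LacZ libraries and between 67575 and 78797 in Nrf2 libraries, where reads of the transgene and of the cells' own gene cannot be told apart. The overexpression of Nrf1 was not checked, since *Nfe2l1* was not analysed here. LacZ library 2 stood apart in leukocyte markers. Its 16 leukocyte markers summed to 3717 normalized reads against 2526 and 2584 in the other LacZ libraries, and it was the highest LacZ library for 6 of the 8 collagen genes. Its sums of fibroblast (32393), smooth muscle (36322) and cardiomyocyte markers (185465) were the lowest of the LacZ libraries. The largest genes, *Vim*, *Acta2* and *Tagln* among them, weigh most in such sums. Single markers, named after their values were seen, went both ways in LacZ library 2. *Pdgfra* (289 against 224 and 221), *Pdgfrb* (1835 against 1328 and 1393) and *Notch3* (476 against 370 and 391) were highest there. *S100a4* (4671 against 5862 and 5083) was lowest there. The endothelial sum of LacZ library 2 was 2379 against 2296 and 2320. Values without it are given beside the collagen calls that it changed and for several other genes.

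Most of the collagen transcripts were lowest in Nrf1 libraries, intermediate in Nrf2 libraries and highest in LacZ libraries, and *Col11a1* alone was highest with Nrf2. The 8 genes together took 1.56% ± 0.049 (SD, n = 3) of all reads in LacZ libraries, 0.42% ± 0.014 in Nrf1 libraries and 0.84% ± 0.030 in Nrf2 libraries. With limma across all genes, at a fold change over 1.5 and an adjusted p-value under 0.05, 7 of the 8 genes were lower and 0 were higher in Nrf1 than in LacZ libraries, where 17.0% of all tested genes were called lower and 11.4% higher. In Nrf2 libraries 5 of the 8 were lower than in LacZ libraries and 1 was higher, against 9.48% and 9.14% of all tested genes. Nrf2 over Nrf1, the direct comparison, had 7 of the 8 higher and 0 lower, against 11.3% and 4.31% of all tested genes. Over the 8 genes the median log2 fold change was -1.72 for Nrf1 over LacZ, -0.68 for Nrf2 over LacZ and 0.98 for Nrf2 over Nrf1, while the medians of all tested genes were 0.00, 0.00 and 0.00. At an unadjusted p-value under 0.05 and with no fold-change cutoff, 1 gene (*Col11a1*) was higher with Nrf1 than with LacZ, and for Nrf2 over Nrf1 0 were lower. The shares of all tested genes at that unadjusted threshold were not computed. The comparisons with LacZ share the same 3 LacZ libraries. For 6 of the 8 genes, those other than *Col11a1* and *Col1a2*, every Nrf1 library lay below every Nrf2 library and every Nrf2 library below every LacZ library. The share of all tested genes with this order was not computed, so the count is a description only.

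**Figure D1:**
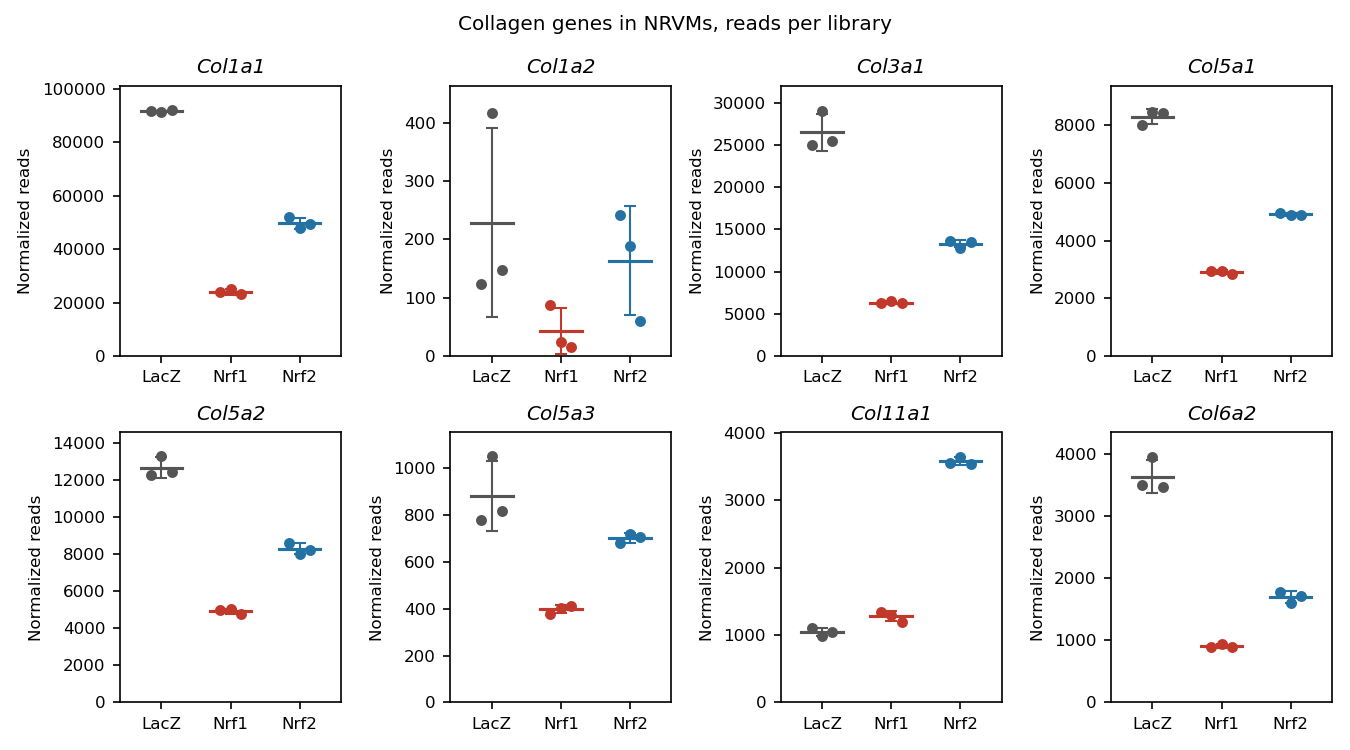
Normalized reads (linear axis from 0) of the 8 collagen genes in each library of the LacZ, Nrf1 and Nrf2 groups. Points are libraries, horizontal lines are means and error bars are SD (n = 3). *Col1a1* falls from a mean of 91597 with LacZ to 24042 with Nrf1 and 49708 with Nrf2, whereas *Col11a1* rises from 1044 with LacZ to 3585 with Nrf2.

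*Col1a1* encodes the chain that makes up most of the type I collagen molecule. It had 91546, 91343 and 91903 normalized reads in the LacZ libraries, 23951, 25166 and 23011 in the Nrf1 libraries, and 51924, 47904 and 49295 in the Nrf2 libraries. The 3 groups were far apart and the LacZ libraries differed among themselves by less than the libraries of either factor. *Col1a1* fell by 1.93 on the log2 scale with Nrf1 (SE 0.030, adjusted p = 6.16e-20), to 26.2% of the LacZ level. With Nrf2 it fell by 0.88 (SE 0.030, adjusted p = 1.80e-14), to 54.2% of the LacZ level. Nrf2 libraries held 2.07 times the *Col1a1* of Nrf1 libraries (log2 fold change 1.05, SE 0.030, adjusted p = 1.71e-15).

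*Col1a2*, the gene of the second type I chain, behaved differently in these tables. It had 124, 417 and 147 normalized reads in the LacZ libraries, 88.1, 23.4 and 16.01 in the Nrf1 libraries, and 242, 189 and 59.5 in the Nrf2 libraries. The highest library of each group exceeded the lowest by 3.37, 5.50 and 4.07 times, whereas for *Col1a1* these ratios were 1.01, 1.09 and 1.08. *Col1a2* was also listed at between 0.696 and 4.66 reads per 1000 *Col1a1* reads, although the 2 chains are parts of 1 molecule. Transcript lengths were not at hand, so levels were not compared between genes on a per-length scale, and the cause of the low *Col1a2* reads was not tested. *Col1a2* was lower with Nrf1 by 2.57 on the log2 scale (SE 0.88, adjusted p = 0.0397), and this call was lost when any 1 of the LacZ libraries or Nrf1 library 2 or 3 was left out (adjusted p from 0.0538 to 0.118), which leaves 6 genes lower with Nrf1. With Nrf2 its log2 fold change over LacZ was -0.49 (SE 0.88, adjusted p = 0.672), and the groups overlapped. Without LacZ library 2 the value was 0.05, and without Nrf2 library 3 it was 0.12. Nrf2 over Nrf1 gave 2.08 (SE 0.88, adjusted p = 0.0920), which passed without Nrf1 library 1 (2.78, adjusted p = 0.0392).

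*Col3a1*, whose product forms type III collagen from a single kind of chain, had 25055, 29043 and 25483 normalized reads in the LacZ libraries, 6218, 6474 and 6248 in the Nrf1 libraries, and 13673, 12808 and 13474 in the Nrf2 libraries. LacZ library 2 was the highest, and no groups overlapped. *Col3a1* fell by 2.07 with Nrf1 (SE 0.051, adjusted p = 2.31e-11), to 23.9% of the LacZ level, the largest decrease among the fibrillar genes other than *Col1a2*. With Nrf2 it fell by 0.99 (SE 0.051, adjusted p = 2.78e-08), to 50.3%. Without LacZ library 2 *Col3a1* was still lower with both factors, by log2 fold changes of -2.003 and -0.93. Nrf2 libraries exceeded Nrf1 libraries by a log2 fold change of 1.08 (SE 0.051, adjusted p = 1.62e-08).

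**Figure D2:**
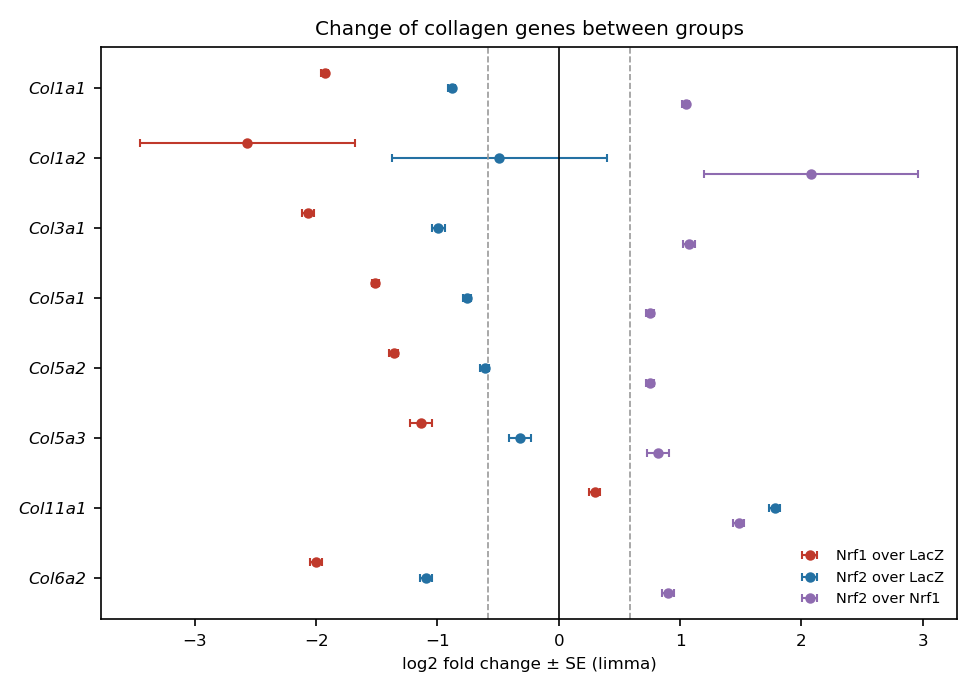
The log2 fold change of each collagen gene with its SE (limma, 3 libraries per group) for Nrf1 over LacZ, Nrf2 over LacZ and Nrf2 over Nrf1. Dashed lines mark a fold change of 1.5 in either direction. All genes but *Col11a1* lie left of 0 in both comparisons with LacZ, and the bars of *Col1a2* (SE 0.88) are the widest.

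Type V collagen is built from chains of *Col5a1*, *Col5a2* and *Col5a3* and is thought to nucleate type I fibrils. *Col5a1* had 8028, 8463 and 8440 normalized reads in the LacZ libraries, 2939, 2953 and 2851 in the Nrf1 libraries, and 4975, 4885 and 4888 in the Nrf2 libraries. *Col5a2* had 12252, 13319 and 12427 in the LacZ libraries, 4983, 5031 and 4759 in the Nrf1 libraries, and 8610, 8032 and 8212 in the Nrf2 libraries. Both genes showed narrow groups that did not overlap, with Nrf2 between Nrf1 and LacZ. With Nrf1, *Col5a1* fell by 1.51 (SE 0.031, adjusted p = 5.29e-25) and *Col5a2* by 1.36 (SE 0.034, adjusted p = 1.82e-22). With Nrf2, *Col5a1* fell by 0.76 (SE 0.031, adjusted p = 5.21e-18) and *Col5a2* by 0.61 (SE 0.034, adjusted p = 1.47e-14). The last value lay just past the fold-change cutoff of 0.58 on the log2 scale, and without LacZ library 2 it was -0.58 and no longer passed, which left 4 genes lower with Nrf2. In Nrf2 over Nrf1 both chains were higher, each by 0.75.

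*Col5a3* encodes a rarer type V chain. Its normalized reads were 776, 1052 and 817 in the LacZ libraries, 379, 402 and 412 in the Nrf1 libraries, and 678, 720 and 705 in the Nrf2 libraries. The LacZ group was wide because of library 2, and the Nrf2 libraries came close to the other LacZ libraries without overlapping them. *Col5a3* fell by 1.14 with Nrf1 (SE 0.089, adjusted p = 4.67e-08), the smallest decrease among the genes called lower. With Nrf2 its log2 fold change was -0.32 (SE 0.089, adjusted p = 0.00772), lower by adjusted p-value but short of the fold-change cutoff, and -0.19 without LacZ library 2. Nrf2 libraries were higher than Nrf1 libraries by 0.82 (SE 0.089, adjusted p = 2.85e-06).

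*Col11a1*, the type XI chain that shares fibrils with type V, was the exception among the 8 genes. It had 1099, 982 and 1051 normalized reads in the LacZ libraries, 1344, 1304 and 1201 in the Nrf1 libraries, and 3557, 3649 and 3547 in the Nrf2 libraries. Every Nrf2 library stood well above all others, and the Nrf1 libraries lay slightly above the LacZ libraries. With Nrf2 *Col11a1* rose 3.44-fold (log2 fold change 1.78, SE 0.045, adjusted p = 1.20e-22). With Nrf1 the log2 fold change was 0.30 (SE 0.045, adjusted p = 1.69e-06), higher by adjusted p-value and short of the fold-change cutoff. Nrf2 libraries held 2.80 times the *Col11a1* of Nrf1 libraries (log2 fold change 1.48, adjusted p = 1.66e-20). *Col11a2*, the gene of a partner chain in type XI collagen and no member of the group, also rose with Nrf2, from 20.1, 24.7 and 26.1 normalized reads in LacZ libraries to 71.3, 66.5 and 64.3 (log2 fold change 1.48, adjusted p = 1.04e-05). In Nrf1 libraries *Col11a2* was lower, at 15.2, 18.5 and 8.004 (log2 fold change -0.79, adjusted p = 0.00644).

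*Col6a2* encodes a type VI chain that assembles with those of *Col6a1* and *Col6a3* inside the cell. It had 3508, 3953 and 3467 normalized reads in the LacZ libraries, 890, 942 and 892 in the Nrf1 libraries, and 1787, 1605 and 1711 in the Nrf2 libraries. No groups overlapped, and LacZ library 2 was again the highest. *Col6a2* fell by 2.00 with Nrf1 (SE 0.048, adjusted p = 1.36e-21), to 25.0% of the LacZ level. With Nrf2 it fell by 1.10 (SE 0.048, adjusted p = 6.20e-16), to 46.7%, the largest decrease with Nrf2 among the 8 genes. Nrf2 over Nrf1 gave 0.90 (SE 0.048, adjusted p = 4.11e-14).

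The genes did not fall by the same amount, so the make-up of the collagen reads shifted. Ratios of reads within a library do not depend on the size factors, and a change of a ratio between groups does not depend on transcript length. Per 1000 *Col1a1* reads, the LacZ libraries held 87.7, 92.7 and 91.8 *Col5a1* reads, the Nrf1 libraries 123, 117 and 124, and the Nrf2 libraries 95.8, 102 and 99.2. For *Col5a2* the values were 134, 146 and 135 with LacZ, 208, 200 and 207 with Nrf1, and 166, 168 and 167 with Nrf2. Relative to *Col1a1* both type V chains thus stood higher than in LacZ libraries, by 1.34 and 1.48 times with Nrf1 and by 1.09 and 1.21 times with Nrf2, with no overlap between groups. *Col5a3* per 1000 *Col1a1* reads went from 9.63 ± 1.65 (SD, n = 3) with LacZ to 16.6 ± 1.15 with Nrf1 and 14.1 ± 1.00 with Nrf2. The largest shift was that of *Col11a1*, with 12.0, 10.7 and 11.4 reads per 1000 *Col1a1* reads in LacZ libraries, 56.1, 51.8 and 52.2 in Nrf1 libraries, and 68.5, 76.2 and 72.0 in Nrf2 libraries. Relative to *Col1a1* it was thus higher with both factors, by 4.69 times with Nrf1, where *Col1a1* fell more than *Col11a1* changed, and by 6.34 times with Nrf2, where the 2 genes moved apart.

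**Figure D3:**
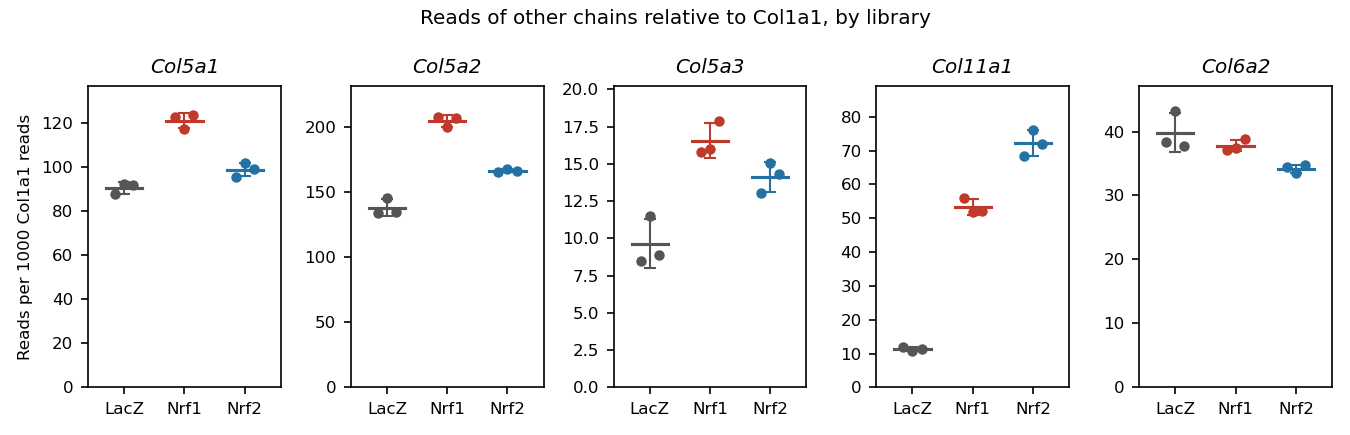
Reads of 5 chains per 1000 *Col1a1* reads of the same library (linear axes from 0) in LacZ, Nrf1 and Nrf2 groups. Points are libraries, lines are means and error bars are SD (n = 3). The mean ratio of *Col11a1* is 11.4 with LacZ, 53.4 with Nrf1 and 72.2 with Nrf2, while *Col6a2* lies between 33.5 and 43.3 in all libraries.

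Against *Col5a1*, the chain it shares fibrils with, *Col11a1* stood 3.50 times higher in Nrf1 and 5.81 times higher in Nrf2 than in LacZ libraries, and *Col5a3* stood 1.30 and 1.36 times higher. The proportions of *Col6a2*, *Col3a1* and the 2 main type V chains were closer between groups. *Col6a2* had 39.8 ± 3.05 reads per 1000 *Col1a1* reads with LacZ, 37.8 ± 0.849 with Nrf1 and 34.2 ± 0.624 with Nrf2 (SD, n = 3), and only the Nrf2 libraries lay apart from both other groups. *Col1a1* over *Col3a1* was 3468 ± 281 per 1000 with LacZ, 3807 ± 109 with Nrf1 and 3732 ± 69.8 with Nrf2, a difference of at most 1.10 times. *Col5a1* over *Col5a2*, the chains of the main type V molecule, went from 657 ± 21.9 per 1000 with LacZ to 592 ± 6.30 with Nrf1 and 594 ± 15.2 with Nrf2. In all, 10 ratios were compared in 3 ways, 30 comparisons, by exact permutation tests, two-sided, in which 3 libraries against 3 cannot give a p-value below 0.1 (0.130 after Benjamini-Hochberg adjustment), so no ratio could pass a threshold of 0.05 and the ranges are given as a description.

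Lists of genes that act on collagen are given by their counts, to be read against the shares of all tested genes called in the same comparisons (17.0% lower and 11.4% higher with Nrf1, 9.48% and 9.14% with Nrf2, and 4.31% and 11.3% for Nrf2 over Nrf1). Among 33 tested genes for the modification, folding, secretion and crosslinking of collagen, Nrf1 libraries had 13 lower (39.4%), 1 higher and 19 not called, and Nrf2 libraries had 5 lower (15.2%), 0 higher and 28 not called, with median log2 fold changes of -0.36 and -0.27. *Loxl3*, a lysyl oxidase that crosslinks collagen, fell by 1.64 with Nrf1 (SE 0.079, adjusted p = 8.17e-17) and fell by 1.06 with Nrf2 (SE 0.079, adjusted p = 2.99e-12). *Adamts2*, which removes the amino-terminal propeptide of fibrillar procollagens, fell from 692, 770 and 757 normalized reads in LacZ libraries to 270, 238 and 262 in Nrf1 libraries (log2 fold change -1.52, adjusted p = 1.86e-18). *P4ha2*, a prolyl 4-hydroxylase subunit needed for a stable triple helix, fell by 1.04 with Nrf2 (adjusted p = 2.80e-15). *P3h2*, a prolyl 3-hydroxylase, was the 1 gene of the list that rose with Nrf1, by 0.78 (adjusted p = 7.16e-15), from 1124, 1099 and 1013 to 1816, 1858 and 1896 normalized reads. *Serpinh1*, the collagen chaperone of the endoplasmic reticulum, named after its values were seen, was under the fold-change cutoff in both comparisons (-0.24 and -0.07). Nrf2 over Nrf1 gave 7 higher (21.2%) and 2 lower (6.06%) genes of this list.

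Of 9 tested collagen receptor genes, 5 were lower with Nrf1 (55.6%) and 3 with Nrf2 (33.3%), and 0 were higher with either, with medians of -0.98 and -0.39. *Antxr1*, which binds type I and type VI collagen, fell by 1.56 with Nrf1 (adjusted p = 1.82e-14) and by 1.13 with Nrf2 (adjusted p = 2.79e-11). *Ddr2*, a tyrosine kinase activated by fibrillar collagen, fell by 1.38 with Nrf1 (adjusted p = 2.56e-14). *Itga11*, an integrin subunit that binds type I collagen, fell by 1.38 with Nrf2 (adjusted p = 4.28e-10). Of 14 other fibril collagens and fibril-associated proteins, 13 were lower with Nrf1 (92.9%), and 8 were lower (57.1%) and 1, *Col11a2*, was higher with Nrf2, with medians of -0.78 and -1.06. *Dcn*, the small proteoglycan decorin that coats fibrils, fell by 2.26 with Nrf1 (adjusted p = 1.09e-06; log2 fold change -2.07 without LacZ library 2), and *Matn4*, a matrilin, fell by 2.22 (adjusted p = 5.10e-11). *Col14a1*, a collagen on fibril surfaces, fell by 1.37 with Nrf2 (adjusted p = 2.48e-19), where it was lower than in Nrf1 libraries. *Lum*, another fibril-binding proteoglycan, was lower with Nrf2 (log2 fold change -1.33, adjusted p = 0.0148), with 203, 473 and 219 normalized reads in LacZ libraries and 118, 91.0 and 121 in Nrf2 libraries, and it missed the threshold without Nrf2 library 2 (adjusted p = 0.0508). Without LacZ library 2, its highest, the log2 fold change of *Lum* was -0.95 (adjusted p = 9.19e-07). Of this list 6 were higher (42.9%) and 2 lower (14.3%) in the direct comparison of Nrf2 with Nrf1, and of the receptors 1 was higher (11.1%, near the share of all genes) and 0 were lower.

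Of 13 tested genes of collagen breakdown, a list that holds metalloproteinase inhibitors beside proteases, 10 were lower (76.9%) and 0 higher past the cutoffs with Nrf1. Their median log2 fold change was -1.24, and -0.73 for the 11 with a mean of at least 100 normalized reads. The inhibitor genes *Timp1* and *Timp2*, named after their values were seen, are among the 10 (-0.73 and -0.68), and *Timp3* was at -0.26. *Ctsl* and *Ctsb*, genes of lysosomal cathepsins named after their values were seen, had log2 fold changes of 0.51 (adjusted p = 3.73e-16) and 0.14 (adjusted p = 1.34e-05) with Nrf1, higher by adjusted p-value and short of the fold-change cutoff. *Mmp2*, a gelatinase, fell from 8508, 8946 and 8878 normalized reads to 2611, 2747 and 2488 with Nrf1 (log2 fold change -1.75, adjusted p = 2.94e-25), and *Fap*, a fibroblast protease, fell by 1.88 (adjusted p = 5.24e-07). With Nrf2, 4 of the breakdown genes were lower (30.8%) and 1 was higher (median -0.37). *Mmp14*, the membrane-bound collagenase, fell by 1.02 (adjusted p = 1.33e-15), *Fap* fell by 1.28 (adjusted p = 0.000181), and *Mmp13*, a secreted collagenase, rose from 16.1, 27.0 and 9.49 normalized reads to 53.9, 51.6 and 53.6 (log2 fold change 1.66, adjusted p = 0.0132), a call that was lost without LacZ library 1 (adjusted p = 0.0509). Among 38 regulators of collagen genes, Nrf1 libraries had 15 lower (39.5%), 1 higher and 22 not called, and Nrf2 libraries had 11 lower (28.9%), 1 higher and 26 not called (medians -0.36 and -0.33). The transcription factor genes *Meox1* and *Twist2* were lower with Nrf1, with log2 fold changes of -2.17 (adjusted p = 2.31e-05) and -1.69 (adjusted p = 8.65e-07). *Scx*, which encodes the collagen-inducing factor scleraxis, rose with Nrf1, by 1.07 (adjusted p = 3.95e-09). With Nrf2, *Tcf21*, a factor of the fibroblast lineage, fell by 1.81 (adjusted p = 2.40e-08), *Meox1* fell by 1.42 (adjusted p = 0.00300), and *Runx2*, a factor of skeletal tissue, rose by 0.71 (adjusted p = 1.43e-05). In Nrf2 over Nrf1, 4 breakdown genes were higher (30.8%) and 0 lower, and 5 regulators were higher (13.2%, near the share of all genes) and 3 lower (7.89%).

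**Figure D4:**
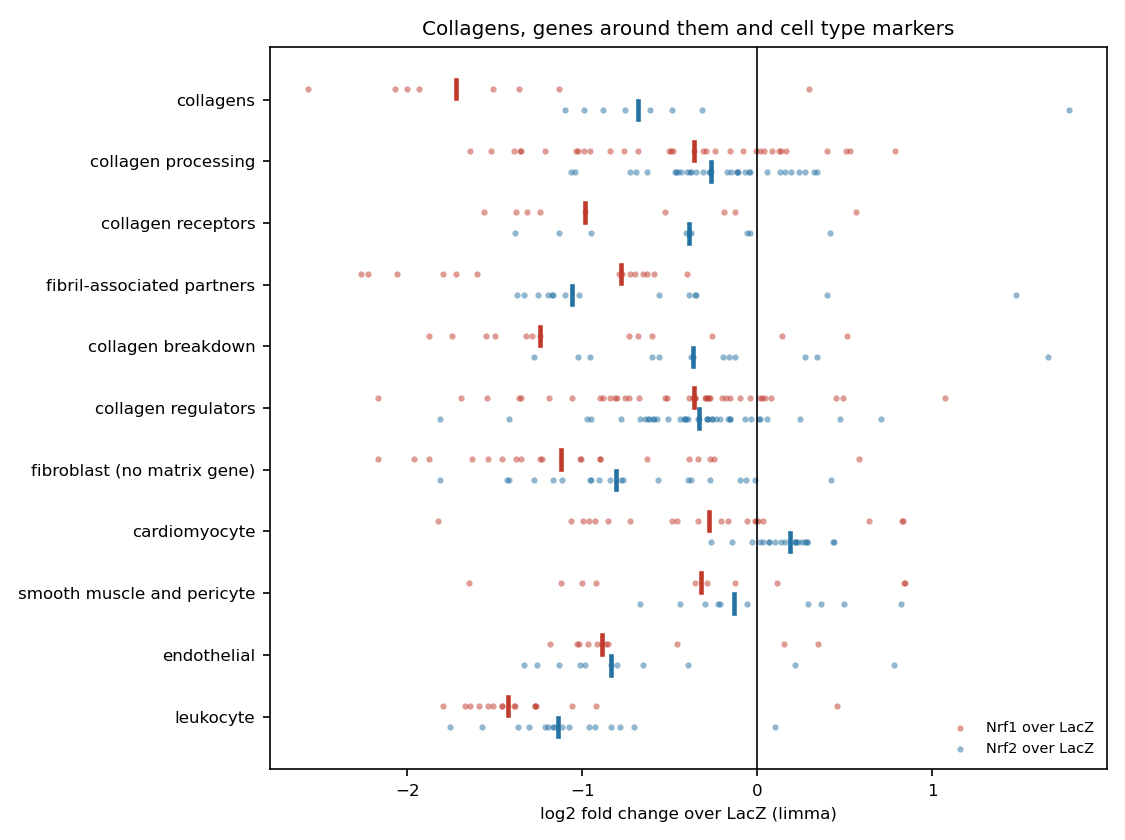
The log2 fold change over LacZ (limma) of each gene in the lists, with Nrf1 and with Nrf2. Points are genes and vertical bars are list medians. The median of the 8 collagens lies at -1.72 with Nrf1 and -0.68 with Nrf2, and that of the fibroblast markers at -1.12 and -0.81.

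Most markers of fibroblasts were lower with both factors. In bulk samples, fewer fibroblasts and less collagen RNA per fibroblast cannot be told apart. Of 20 tested fibroblast markers that encode no matrix protein, from a list of 22, 15 were lower (75%, against 17.0% of all tested genes) and 0 higher with Nrf1, and 12 were lower (60%, against 9.48%) and 0 higher with Nrf2, with medians of -1.12 and -0.81. Among the 13 of them with a mean of at least 100 normalized reads, 9 were lower with Nrf1 (median -1.24) and 6 with Nrf2, where the median of -0.40 was short of the fold-change cutoff. The shares of all genes with such means were not computed. The summed level of the 20 markers was between 32393 and 33976 normalized reads in LacZ libraries, 26536 and 26939 in Nrf1 libraries, and 27195 and 28547 in Nrf2 libraries, a sum in which *Vim*, also expressed by other cells, is the largest. Among the defining fibroblast genes, *Plac9* fell by 1.96 with Nrf1 (adjusted p = 7.28e-14) and by 1.43 with Nrf2 (adjusted p = 1.34e-10). *Pdgfra* and *Thy1*, named after their values were seen, had log2 fold changes of -1.46 (adjusted p = 2.07e-09) and -1.54 (adjusted p = 2.09e-18) with Nrf1, and of -0.40 (adjusted p = 0.0128) and -0.77 (adjusted p = 2.58e-11) with Nrf2, of which -0.40 is short of the fold-change cutoff. Other members, also named after their values were seen, differed from these: *S100a4* had log2 fold changes of 0.58 (adjusted p = 0.000199) with Nrf1 and 0.42 (adjusted p = 0.00181) with Nrf2, both short of the cutoff, and with Nrf2 *Tbx18* was at -0.01 and *Tbx20* at -0.06. In Nrf2 over Nrf1, 4 fibroblast markers were higher (20%, against 11.3% of all tested genes) and 1 lower (5%, near the 4.31% of all tested genes), with a median of 0.38. The part of fibroblast number in the collagen differences was not tested.

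The label of the cells was checked with 20 tested cardiomyocyte markers of 23 listed, which summed to between 185465 and 224757 normalized reads in every library. *Actc1* and *Tnnt2*, named after their values were seen, are the largest in this sum, with log2 fold changes of 0.64 and -0.21 with Nrf1. With Nrf1, 7 of the 20 markers were lower (35%, against 17.0% of all tested genes) and 3 higher (15%, against 11.4%), with a median of -0.27. The log2 fold changes were -1.83 for *Mb* (myoglobin), -1.06 for *Myh7* (a myosin heavy chain), and 0.83 for both *Ryr2* (the calcium release channel) and *Nppb* (a natriuretic peptide). With Nrf2, 0 of the 20 passed the limma cutoffs in either direction (median 0.19), while at an unadjusted p-value under 0.05 alone 2 were lower and 9 higher. The shares of all tested genes at that unadjusted threshold were not computed. Of 10 smooth muscle and pericyte markers, 2 were lower (20%, near the 17.0% of all tested genes) and 2 higher (20%, against 11.4%) with Nrf1. With Nrf2 1 was higher (10%, near the 9.14% of all tested genes). Their sum was between 36322 and 42994 normalized reads with LacZ, 62279 and 63105 with Nrf1, and 50684 and 53915 with Nrf2, a sum in which *Acta2* and *Tagln* are the largest. *Acta2*, the smooth muscle actin also made by myofibroblasts and immature cardiomyocytes, rose with Nrf1 from 19289, 15609 and 17624 to 31705, 31443 and 30830 normalized reads (log2 fold change 0.84, adjusted p = 5.63e-05). *Tagln* also rose with Nrf1 (0.84), whereas *Myh11* and *Notch3* fell, by 1.00 and 1.12. Of 11 endothelial markers, 8 were lower with Nrf1 (72.7%) and 7 with Nrf2 (63.6%), and 1 was higher with Nrf2. Of 16 leukocyte markers, 15 were lower with each factor (93.8%), with medians of -1.42 and -1.14. Without LacZ library 2 these medians were -1.25 and -0.97, and 15 and 13 were lower. The leukocyte sum, between 2526 and 3717 normalized reads in LacZ libraries, was between 1361 and 1461 with Nrf1 and between 1396 and 1515 with Nrf2, and the endothelial sum went from between 2296 and 2379 to between 1498 and 1579 and between 1455 and 1756. The part of these cells in the collagen differences was not tested. Some genes stand in more than 1 list.

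The genes whose profile was most like that of the collagens were ranked by Pearson's r over the 9 libraries with the mean standardized profile of the 8 genes, the ranking being limited to the 8366 genes whose mean reached 100 normalized reads. *Mrc2*, a receptor that takes up collagen fragments and also a gene of the fibroblast marker list, came first (r = 0.995). Its normalized reads were 787, 862 and 867 in LacZ libraries, 382, 341 and 338 in Nrf1 libraries, and 668, 636 and 626 in Nrf2 libraries, the same order of groups as for most collagens. It was followed by *Sat1*, an enzyme of polyamine breakdown (r = 0.994), and by *Pappa*, a protease of insulin-like growth factor binding proteins, *Irgm*, an interferon-induced GTPase, and *Mthfd2*, a mitochondrial folate enzyme, these last each with r of 0.993. The mean profile includes *Col11a1* and *Col1a2*, and no ranking was made without them. With Nrf2 the log2 fold changes over LacZ of *Mrc2* (-0.38), *Sat1* (-0.40), *Pappa* (-0.34) and *Mthfd2* (-0.38) were short of the fold-change cutoff. *Irgm* was at -0.98, and the collagens called lower with Nrf2 lay between -1.10 and -0.61. The values of r describe the separation of the 3 groups, which the libraries share, and carry no test.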

How the data were processed

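RNA of NRVMs was sequenced as 75-bp single-end stranded mRNA libraries. Per the labels and the paper's methods, the authors used FastQC 0.11.4, HISAT2 2.0.4 on Rnor_6.0, SAMtools 0.1.18 to remove duplicate reads, featureCounts 1.6.0 and edgeR 3.20.5. Removing duplicates can cap highly expressed genes. The highest *Col1a1* value was 91047 reads, in LacZ library 1, and a cap on this or any other gene was not tested for. The deposited signal is the authors' mean over 3 libraries of read counts divided by size factors, computed within each pair of groups. The tables also hold the authors' fold changes and p-values, which were not used.

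Whole reads per library were solved from the group means (Python 3.11.15, numpy 2.4.6), taking the 3 commonest of the lowest means as the first estimate of what 1 read adds. Genes with other than 1 solution, shared symbols or symbols written as dates were left out, 56 of 15122 genes. In simulated means printed with 10 digits, 0 of the solutions found were wrong in any group. Size factors were medians of ratios. Genes that reached a mean of 10 normalized reads in 1 or more groups were tested with limma 3.58.1 (R 4.3.3, trend and robust) on log2(normalized reads + 1), which understates changes of low genes, in 1 fit of 9 libraries with Benjamini-Hochberg adjustment over 11639 genes. limma was planned in place of a count test because the deposited values are means, and no count test was run on the solved reads. On simulated reads for Nrf1 and LacZ, 90 of 100 genes changed by 1 on the log2 scale and 100 of 100 changed by 2 were called, and 11 unchanged genes were called among the 11457 tested. The simulation gave every gene the same dispersion, so its rates do not describe a gene as variable as *Col1a2*.

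The members and gene lists (collagen processing, receptors, fibril partners, breakdown and regulators, and markers of 5 cell types) were chosen with earlier results of these data known. Genes named are all members, *Nfe2l1* and *Nfe2l2*, the 2 largest called changes per direction in each pathway list and comparison with LacZ, examples by the same rule from the marker lists, the 5 genes most like the members, and those stated as named later. Alternatives were other pseudocounts, voom weights, no filter, total reads as size factors, pairwise fits, leaving out each library, other cutoffs, and ratios of the deposited means.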

Additional observations from a re-analysis of the deposited data

How the results depend on the processing

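No paired analysis was possible because the solved libraries carry no replicate numbers of the sample names. The fits without 1 library gave 6 to 7 genes lower and 0 to 0 higher for Nrf1 over LacZ, 4 to 5 lower and 1 to 1 higher for Nrf2 over LacZ, and 7 to 8 higher for Nrf2 over Nrf1. Across all alternatives of the fit, each member other than *Col1a2* kept its direction in every comparison, and of these only *Col5a2* with Nrf2 changed its call (without LacZ library 2). *Col1a2* with Nrf1 also lost its call with voom weights (adjusted p = 0.121) and in a fit of the 2 groups alone (adjusted p = 0.0610). Leaving out single libraries moved *Col1a2* from -3.27 to -2.03 for Nrf1 over LacZ, from -0.88 to 0.12 for Nrf2 over LacZ, where 0.05 and 0.12 were of the other sign, and from 1.59 to 2.78 for Nrf2 over Nrf1. With a fold change over 2, 1 gene was lower with Nrf2 and 3 were higher in Nrf2 than in Nrf1 libraries, and with no fold-change cutoff 1 gene, *Col11a1*, was higher with Nrf1. The shares of all tested genes at these cutoffs were not computed, so the counts are a description only. Keeping list genes with a mean of at least 100 left 0 fibril partners and 0 breakdown genes higher with Nrf2, 7 regulators lower with Nrf2, and 2 breakdown genes and 3 regulators higher in Nrf2 than in Nrf1 libraries, fewer genes being tested. For the marker lists, added after seeing the data, the same filter left 9 fibroblast, 4 endothelial and 9 leukocyte markers lower with Nrf1, 6, 4 and 9 lower with Nrf2, and 0 fibroblast markers lower and 1 leukocyte marker higher for Nrf2 over Nrf1. The shares of all genes called under this filter were not computed. Leaving out each library from the list counts, chosen after seeing the data, moved 13 list counts by over 1.5 times, none of them a count of lower pathway genes over LacZ. Without LacZ library 1, 2 processing genes and 1 fibroblast marker were higher and 4 smooth muscle markers lower with Nrf1, and 0 breakdown genes were higher with Nrf2. Without LacZ library 2, 1 leukocyte marker was higher with Nrf1, without Nrf1 library 2, 1 fibroblast marker was, and without Nrf1 library 3, 1 receptor was. For Nrf2 over Nrf1 the ranges were 4 to 7 processing genes, 1 to 2 receptors, 4 to 7 fibroblast, 0 to 3 endothelial and 2 to 4 leukocyte markers higher, and 1 to 2 fibril partners and 0 to 1 endothelial markers lower; the libraries behind the ends were Nrf1 library 3 for processing and leukocytes, Nrf2 library 3 for receptors and lower endothelial markers, Nrf2 library 2 for fibroblasts and partners, and Nrf1 library 2 and Nrf2 library 2 for higher endothelial markers. The ratio of the deposited means differed from the limma value by at most 0.02 on the log2 scale for genes other than *Col1a2* and by at most 0.14 for *Col1a2*. Re-centring these ratios on the median gene, which moved by 0.05 for Nrf1 over LacZ, gave -1.99 for *Col1a1*, -1.57 for *Col5a1* and -1.42 for *Col5a2*. *Col1a2* had as few as 14 reads in a library, which adds counting error, but its spread between LacZ libraries (123, 371 and 124 reads) was not tested for a cause.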
